A study of Homo sapiens with 4 samples.

Results

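The genes described here are 10 mRNAs of fatty acid synthesis and lipid droplet storage: ACLY, ACACA, FASN, SCD, ACSL3, LPIN1, LPIN2, DGAT1, PLIN2 and PLIN3. They were chosen by name, and all 10 were found among the 12838 gene symbols of the deposited table. RNA was recovered by immunoprecipitation from LM2-4175 cells, which descend from the breast cancer line MDA-MB-231 and were selected for metastasis to the lung. These cells stably carried CerS4, a ceramide synthase, on a construct switched on by doxycycline. Cells were left untreated or given 5 µg/mL doxycycline for 48 h, and RNA was pulled down with an antibody to EXOSC10, the nuclear exoribonuclease subunit of the RNA exosome, or with control IgG. This gave 4 groups of 1 library each: untreated IgG, untreated EXOSC10, doxycycline IgG and doxycycline EXOSC10. The study asked how mRNA decay linked to PD-L1 and Caprin-1 responds when lipid metabolism is altered, and its primary comparison was EXOSC10-bound RNA with against without doxycycline. All 4 libraries came from cells with the construct, so an effect of doxycycline itself and one of the induced enzyme cannot be told apart. No library was labelled as input RNA, so a change in how much of an mRNA the cells held and a change in how much of it was recovered cannot be told apart either.

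Fatty acid synthesis runs in the cytosol. ACLY makes acetyl-CoA from citrate, ACACA carboxylates it to malonyl-CoA, FASN assembles palmitate from both, and SCD introduces a double bond. ACSL3 activates fatty acids with coenzyme A at the endoplasmic reticulum and at nascent lipid droplets. The lipins LPIN1 and LPIN2 dephosphorylate phosphatidate to diacylglycerol, which DGAT1 esterifies to triglyceride, and the perilipins PLIN2 and PLIN3 coat the droplets that store it. The same fatty acyl-CoAs are the substrates that ceramide synthases attach to sphingoid bases.

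The libraries differed in usable depth. Ribosomal RNA genes took between 56.3% and 83.8% of the reads, which left 1052991 (untreated) and 1229746 (doxycycline) non-ribosomal reads with IgG, and 1023362 and 2408180 with EXOSC10. Read numbers below are estimates from the deposited CPM (counts scaled to a total of 1000000 per library). Levels are CPM after TMM scaling (trimmed mean of M values), and a ratio is the log2 difference of 2 levels with 0.2 CPM added, which understates ratios of low genes. Each ratio is followed by an exact 95% interval that covers counting error only. A gene counts as higher or lower when the ratio reached 2-fold and the libraries compared held at least 100 reads together. With 1 library per group no difference between libraries has a replicate check or a p-value. All 8 mesenchymal markers of MDA-MB-231 cells that were looked up, VIM among them, were in the table. So were 5 of 7 luminal markers, with KRT19 the most read of these and ESR1 and EPCAM not listed. Of 10 lung-metastasis genes of the LM2 selection, 8 were listed, at 141 to 232 scaled CPM together, and PTGS2 and CXCL1 were not. SPARC was the most read of these. VCAM1 and ANGPTL4 had 20.6 and 35.4 reads in the doxycycline EXOSC10 library and at most 0.18 and 2.87 in any other. Of 8 adipocyte markers, FABP4, PPARG, CFD and ADIPOQ were listed, with a summed level of 37.9 to 67.0 scaled CPM, while LEP, PLIN1, CIDEC and LIPE were not; FABP4, PPARG, PLIN1, CIDEC and LIPE also stand in the pathway lists below. Of 7 leukocyte markers, CD68 and LYZ were listed, at 10.5 to 27.7 scaled CPM together. The summed adipocyte, luminal and leukocyte markers were higher with EXOSC10 than with IgG in both treatments. For luminal markers the sums were 105 against 96.8 scaled CPM untreated and 123 against 80.9 with doxycycline. Not every marker was higher: the scaled levels of the adipocyte marker CFD and the luminal marker GATA3 were lower with EXOSC10 in both treatments. ADIPOQ had at most 15.8 reads in a library. For leukocytes with doxycycline the sums were close, at 15.2 and 14.0 scaled CPM, and LYZ had 15 and 0 reads. The summed mesenchymal markers were lower, at 880 against 1915 scaled CPM untreated and 690 against 1495 with doxycycline, but not every marker was. Untreated, with similar non-ribosomal reads, VIM (2893 with IgG, 2079 with EXOSC10), MSN (1593, 1381) and AXL (293, 174) had fewer reads with EXOSC10. CD44 (73.5, 319), LGALS1 (144, 408), ANXA1 (37, 120), CAV1 (50, 102) and TGFBI (8, 26) had more. The sums differed between the antibodies, and the part of the markers in the ratios below was not tested.

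Together the 10 mRNAs took 0.0959% of the non-ribosomal reads in the untreated IgG library (exact 95% interval 0.0900 to 0.102, 1009 reads) and 0.109% in the doxycycline IgG library (0.103 to 0.115, 1340 reads). With EXOSC10 the shares were 0.180% untreated (0.172 to 0.189, 1845 reads) and 0.222% with doxycycline (0.216 to 0.228, 5335 reads). Both EXOSC10 shares lay above both IgG shares, but on this scale the median of all genes compared was itself 0.56 higher with EXOSC10 untreated and 1.07 higher with doxycycline (log2). The genes did not move as one. Against IgG and with TMM scaling, the mRNAs of the first enzymes of the pathway, ACLY and ACACA, were 2-fold lower with EXOSC10 in both treatments, and LPIN1 was 2-fold higher in both. Of all genes compared, 36.1% untreated and 26.6% with doxycycline were also 2-fold lower, and 5.37% and 14.0% were higher. These shares depend on the minimum of reads, as given below. With doxycycline, PLIN2 was the 1 gene of the 10 whose EXOSC10-bound level differed by 2-fold. It was lower, as were 3.98% of all genes compared.

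**Figure D1:**
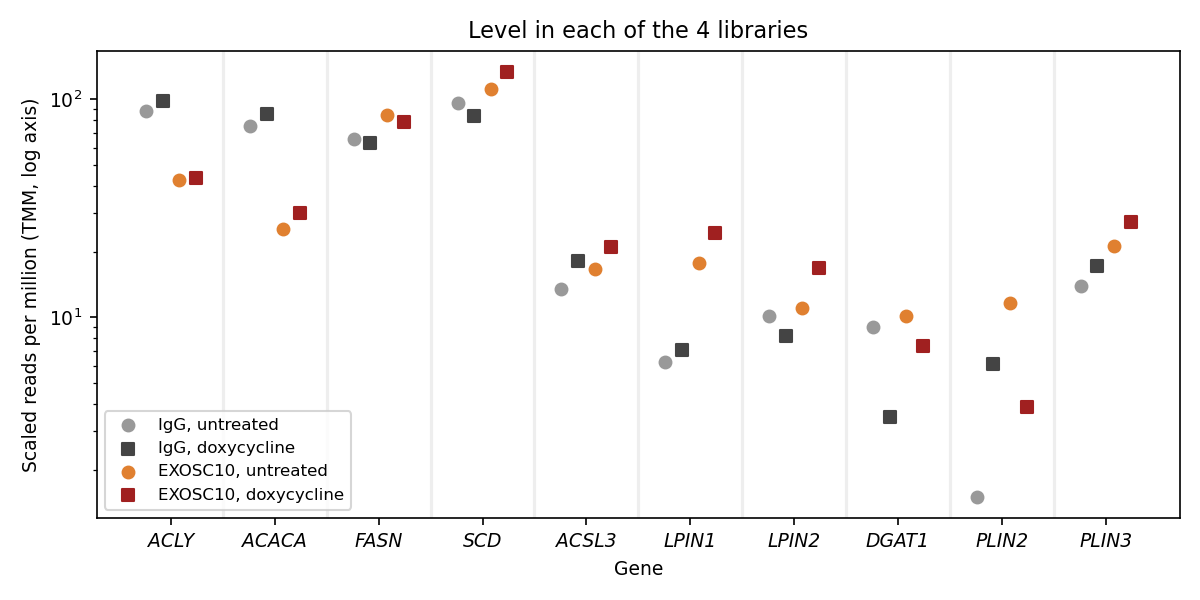
Level of each of the 10 genes in the 4 libraries, as TMM-scaled CPM on a log axis. Each point is 1 library; levels are to be compared within a gene only, because transcripts differ in length. ACLY and ACACA have both EXOSC10 points below both IgG points, LPIN1 has both above, and PLIN2 runs from 1.504 in the untreated IgG library to 11.6 in the untreated EXOSC10 library.

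ACLY, on chromosome 17 from 41866917 to 41930545 (GRCh38), had 234 and 336 reads with IgG and 223 and 600 with EXOSC10, in each case untreated first and doxycycline second. Its levels were 88.0 and 98 scaled CPM with IgG against 42.6 and 43.5 with EXOSC10. Both EXOSC10 libraries were therefore below both IgG libraries, by -1.04 on the log2 scale untreated (-1.32 to -0.78) and by -1.17 with doxycycline (-1.37 to -0.97). These ratios stood at percentiles 35.3 and 23.7 of all genes compared. Doxycycline over untreated with EXOSC10 was 0.03 (-0.19 to 0.26). The 2-fold difference over IgG was lost with upper-quartile scaling (-0.91 and -0.97), and with the non-ribosomal total the antibodies were about equal (-0.03 and -0.13). ACLY has 4 entries in the table, and its largest entry alone gave -4.08 over IgG untreated, -1.10 with doxycycline, and 2.55 for doxycycline over untreated with EXOSC10.

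ACACA, the rate-limiting carboxylase, lies on the same chromosome from 37084992 to 37406836 and showed the same order. Its reads were 200 and 294 with IgG and 133 and 415 with EXOSC10. Scaled levels were 75.2 and 85.7 CPM with IgG and 25.4 and 30.1 CPM with EXOSC10. EXOSC10 over IgG was -1.56 untreated (-1.89 to -1.24) and -1.50 with doxycycline (-1.73 to -1.29), the lowest of the 10 genes in both treatments with entries summed. Among all genes compared these ratios stood at percentiles 20.7 and 18.3. The non-ribosomal total gave -0.54 and -0.47, and the largest entry of ACACA alone gave -1.49 and -0.34, the latter short of 2-fold. Doxycycline over untreated was 0.24 with EXOSC10 (-0.04 to 0.54) and 0.19 with IgG (-0.08 to 0.46), intervals that include equality.

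FASN, the fatty acid synthase (chromosome 17, 82078338 to 82098236), did not share this order. Its reads were 175 and 217 with IgG and 444 and 1089 with EXOSC10, and the scaled levels were 65.8 and 63.3 CPM against 84.8 and 79.0 CPM. Both EXOSC10 libraries lay slightly above both IgG libraries, at 0.36 untreated (0.11 to 0.63) and 0.32 with doxycycline (0.11 to 0.54). Neither antibody gave a doxycycline ratio away from 0: -0.10 with EXOSC10 (-0.26 to 0.06) and -0.06 with IgG (-0.35 to 0.24).

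SCD, the stearoyl-CoA desaturase (chromosome 10, 100347233 to 100364826), had 256 and 287 reads with IgG, and 582 and 1841 with EXOSC10. Scaled levels were 96.3 and 83.7 CPM with IgG and 111 and 134 CPM with EXOSC10. The doxycycline EXOSC10 library was the highest. With doxycycline the EXOSC10 level was 0.26 higher (0.13 to 0.40), while the IgG level was at -0.20 (-0.45 to 0.05). EXOSC10 over IgG was accordingly 0.21 untreated (-0.01 to 0.43) and 0.67 with doxycycline (0.49 to 0.86), and the change between these, 0.47, had an interval from 0.19 to 0.74.

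ACSL3, the acyl-CoA synthetase of droplets (chromosome 2, 222861036 to 222944639), had 35.9 and 62.0 reads with IgG and 87.0 and 291 with EXOSC10. Its levels, 13.5 and 18.1 scaled CPM with IgG and 16.6 and 21.1 with EXOSC10, rested on fewer reads, and both antibodies gave the higher level with doxycycline. Its largest entry alone gave -0.25 with EXOSC10, in the other direction. That entry gave -5.58 with IgG and 5.69 for EXOSC10 over IgG with doxycycline. It held 0.02% of the gene's reads in the doxycycline IgG library. With the entries of ACSL3 summed, the intervals of all its ratios included 0. EXOSC10 over IgG was 0.30 untreated (-0.28 to 0.90) and 0.22 with doxycycline (-0.18 to 0.64). Doxycycline over untreated was 0.34 with EXOSC10 (-0.01 to 0.71).

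LPIN1 (chromosome 2, 11677544 to 11827409), a lipin that also acts as a transcriptional co-regulator, had 16.6 reads in the untreated IgG library and 24.4 in the doxycycline IgG library, against 92.8 and 335 with EXOSC10. Scaled levels were 6.24 and 7.11 CPM with IgG and 17.7 and 24.3 CPM with EXOSC10. Both EXOSC10 libraries were above both IgG libraries, 2.78-fold untreated (log2 1.48, 0.74 to 2.36) and 3.35-fold with doxycycline (1.75, 1.18 to 2.43). LPIN1 was thus the 1 gene of the 10 that was 2-fold higher in both treatments, at percentile 98.7 of the 3615 genes compared untreated and 96.0 of the 6275 compared with doxycycline. These percentiles hold at the minimum of 100 reads, and LPIN1 had 16.6 and 92.8 reads untreated. With a minimum of 20 reads, 1480 of 8526 genes compared were 2-fold higher untreated and 2864 of 10944 with doxycycline. With a minimum of 500 reads, which LPIN1 did not pass, 3 of 711 and 40 of 1468 were. Within the EXOSC10 libraries LPIN1 was 0.45 higher with doxycycline (0.12 to 0.80), short of 2-fold. LPIN1 has several entries in the table, and with its largest entry in place of their sum EXOSC10 over IgG was 0.64 untreated, under 2-fold, and 2.85 with doxycycline.

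LPIN2 (chromosome 18, 2916994 to 3013144), its paralog, had 27.0 and 28.0 reads with IgG, untreated and with doxycycline, and 58.0 and 231 with EXOSC10. The scaled levels were 10.2 and 8.17 CPM with IgG and 11.1 and 16.8 CPM with EXOSC10. The doxycycline EXOSC10 library was the highest of the 4 and the other 3 lay close together. EXOSC10 over IgG was 0.12 untreated (-0.56 to 0.84) and 1.02 with doxycycline (0.47 to 1.66), and the interval of the change, 0.90, ran from 0.03 to 1.76. Of the 10 genes LPIN2 had the highest EXOSC10 ratio of doxycycline over untreated, 0.59 (0.18 to 1.04). With the largest of its entries alone that ratio was 2.28, and EXOSC10 over IgG untreated was -1.56.

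DGAT1 (chromosome 8), the last enzyme of triglyceride synthesis, had 24 and 12 reads with IgG and 53 and 102 with EXOSC10. Its levels were 9.03 and 3.50 scaled CPM with IgG and 10.1 and 7.40 scaled CPM with EXOSC10. The level in doxycycline IgG was the lowest, at -1.32 against untreated IgG (-2.50 to -0.31). This low control library enters the EXOSC10 over IgG ratio with doxycycline, 1.04 (0.21 to 2.08), while the EXOSC10 libraries themselves differed by -0.44 (-0.95 to 0.05). DGAT1 overlaps HSF1 in the annotation, and with the reads of both genes summed the EXOSC10 over IgG ratio was 0.40 with doxycycline and -0.67 untreated, and the doxycycline ratio of the EXOSC10 libraries was 0.19. With median-of-ratios factors DGAT1 and LPIN2 both missed 2-fold over IgG with doxycycline, at 0.97 and 0.95.

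PLIN2 (chromosome 9, 19108388 to 19127492), the perilipin found on droplets of most cell types, had few reads: 4 and 21 with IgG, and 61.0 and 53.6 with EXOSC10. The other 9 genes had more reads in the deeper doxycycline EXOSC10 library than in the untreated one, and PLIN2 had fewer. Its scaled levels were 1.504 and 6.12 CPM with IgG and 11.6 and 3.89 CPM with EXOSC10, so the untreated EXOSC10 library was the highest and the untreated IgG library the lowest. Within EXOSC10, doxycycline over untreated was -1.53 (-2.14 to -1.03), or 2.90-fold lower, at percentile 0.668 of the 6582 genes compared. With IgG the ratio was 1.89 in the opposite direction (0.46 to 4.03). EXOSC10 over IgG was 2.80 untreated (1.52 to 4.87) and -0.63 with doxycycline (-1.41 to 0.15), both under 100 reads. The change of this ratio was -3.43 (-5.06 to -1.80) and rests on the 4 reads of the untreated IgG library. The untreated EXOSC10 library enters both the doxycycline ratio and the untreated EXOSC10 over IgG ratio, so these are not separate observations.

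PLIN3 (chromosome 19, 4838341 to 4867667), a perilipin that moves between cytosol and nascent droplets, did not follow PLIN2. It had 37.0 and 59.0 reads with IgG and 111 and 377 with EXOSC10, or 13.9 and 17.2 scaled CPM against 21.2 and 27.4. Both EXOSC10 libraries lay above both IgG libraries, at 0.60 untreated (0.06 to 1.19) and 0.66 with doxycycline (0.27 to 1.09). The EXOSC10 level was 0.37 higher with doxycycline (0.06 to 0.69) with its entries summed, where PLIN2 was lower, but its largest entry alone was at -0.49.

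**Figure D2:**
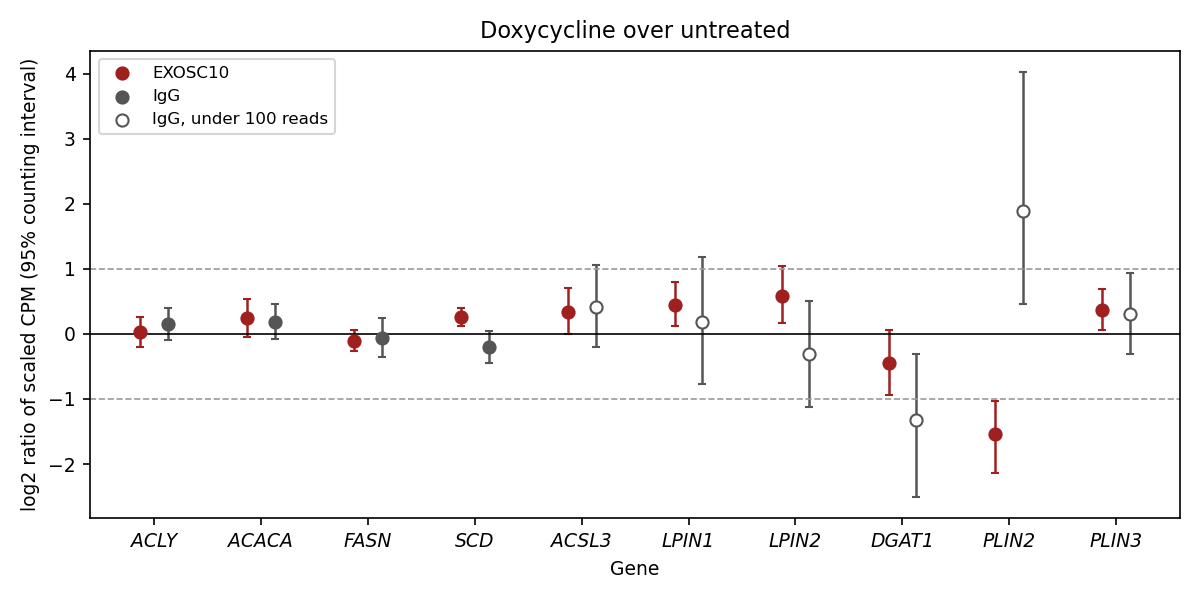
Log2 ratio of doxycycline over untreated for each gene in the EXOSC10 libraries (red) and the IgG libraries (grey), with exact 95% counting intervals; open points rest on under 100 reads and dashed lines mark 2-fold. PLIN2 lies at -1.53 with EXOSC10 and at 1.89 with IgG, and the other 9 EXOSC10 points lie between -0.44 and 0.59.

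Across the 10 genes, the EXOSC10 ratios of doxycycline over untreated had a median of 0.25, beside -0.04 for all 6582 genes compared, and 7 of the 10 lay above that median. This difference was lost with the largest entry of each symbol in place of the sum, where the medians were -0.06 and -0.02. With entries summed, none of the 10 was 2-fold higher, where 6.06% of all genes compared were, and 1, PLIN2, was 2-fold lower, where 3.98% were. The intervals of SCD, LPIN1, LPIN2 and PLIN3 lay above 0, that of PLIN2 lay below it, and 5 included it. They cover counting error only, and the matching share of all genes is not given here. Median-of-ratios factors moved these ratios by -0.09, and the PLIN3 interval began at 0.06. In the order of ratios, PLIN2 stood apart from its neighbour DGAT1, whose interval did not overlap that of PLIN2, and all other neighbours had overlapping intervals. With IgG, 4 of the 10 had 100 reads (ACLY, ACACA, FASN and SCD) and none reached 2-fold either way, against 2.97% higher and 3.44% lower of the 3026 genes compared.

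EXOSC10 over IgG spread the genes more widely. Untreated, 7 of the 10 had 100 reads, 1 was 2-fold higher (LPIN1, beside 5.37% of all genes compared) and 2 were 2-fold lower (ACLY and ACACA, beside 36.1%). With doxycycline, 9 had 100 reads, 3 were 2-fold higher (LPIN1, LPIN2 and DGAT1, beside 14.0%) and the same 2 were 2-fold lower (beside 26.6%). The median of the 10 was 0.25 untreated and 0.49 with doxycycline, beside -0.45 and 0.05 for all genes compared. The medians of the 10 include genes under 100 reads. For those of the 10 with 100 reads the medians were 0.30 and 0.66. The all-gene medians and shares depend on the minimum of 100 reads. With a minimum of 20 reads, which all 10 genes pass, the all-gene medians were 0.06 and 0.29. At that minimum 1480 genes were higher and 1914 lower of 8526 untreated, and 2864 and 2157 of 10944 with doxycycline. With a minimum of 500 reads, which 2 of the 10 pass untreated and 4 with doxycycline, the all-gene medians were -1.52 and -1.01. There 3 genes were higher and 476 lower of 711 untreated, and 40 and 735 of 1468 with doxycycline. In the untreated order the gap lay between ACLY and LPIN2, whose intervals did not overlap; with doxycycline the intervals of all neighbours overlapped. For the change of the ratio with doxycycline, 4 of the 10 had enough reads and none changed by 2-fold, beside 4.75% higher and 10.9% lower of the 2945 genes compared.

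**Figure D3:**
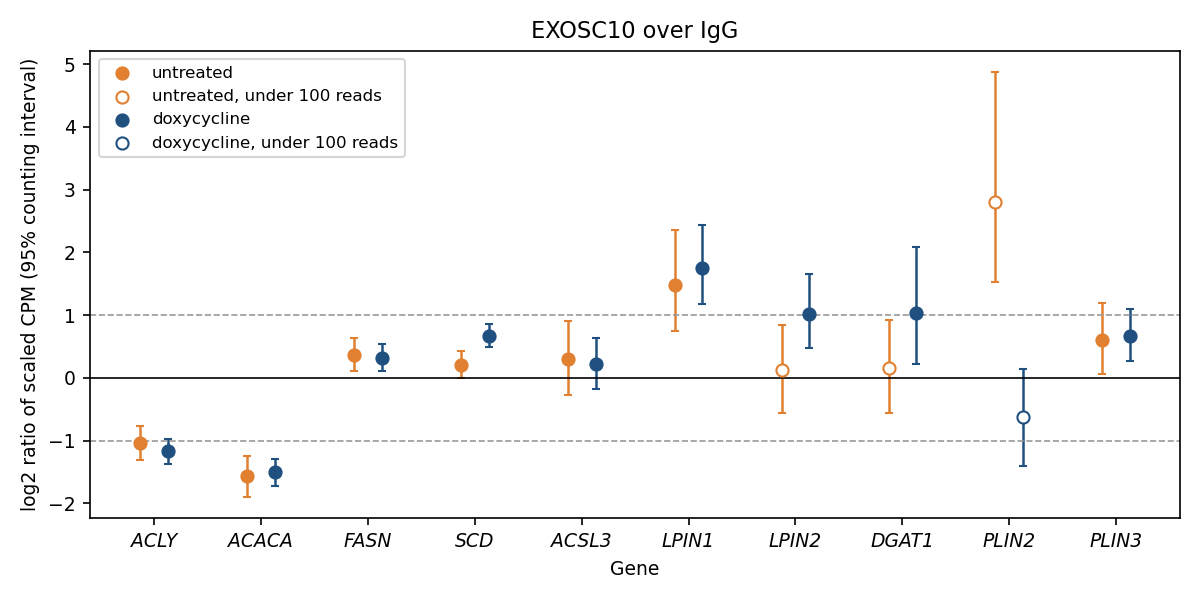
Log2 ratio of EXOSC10 over IgG for each gene, untreated (orange) and with doxycycline (blue), with exact 95% counting intervals; open points rest on under 100 reads and dashed lines mark 2-fold. ACACA and ACLY lie below -1 and LPIN1 above 1 in both treatments, whereas PLIN2 goes from 2.80 to -0.63.

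These directions depend on how the libraries are scaled, because a scaling moves every gene by nearly the same amount. Against TMM, total counts moved the EXOSC10 doxycycline ratios by 1.02, the IgG doxycycline ratios by -0.66, and EXOSC10 over IgG by 0.79 untreated and 2.47 with doxycycline. The total of non-ribosomal reads moved them by 0.16, 0.14, 1.02 and 1.04, the upper quartile by 0.08, 0.02, 0.13 and 0.20, and median-of-ratios factors by -0.09 to -0.00. PLIN2 was lower with doxycycline in the EXOSC10 libraries under all 5 scalings, from -1.62 to -0.56, where only total counts (-0.56) put it short of 2-fold, and ACACA, SCD, ACSL3, LPIN1, LPIN2 and PLIN3 were on the higher side under all 5. ACLY, FASN and DGAT1 changed sign under 1 scaling or more. The EXOSC10 over IgG ratios of ACLY and ACACA were negative under all 5 scalings untreated and under 4 with doxycycline, where total counts put them at 1.29 and 0.95, but with the non-ribosomal total both genes missed 2-fold in both treatments. LPIN1 stayed positive in both treatments under all 5. The negative PLIN2 ratio with doxycycline turned positive under total counts and under the non-ribosomal total.

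**Figure D4:**
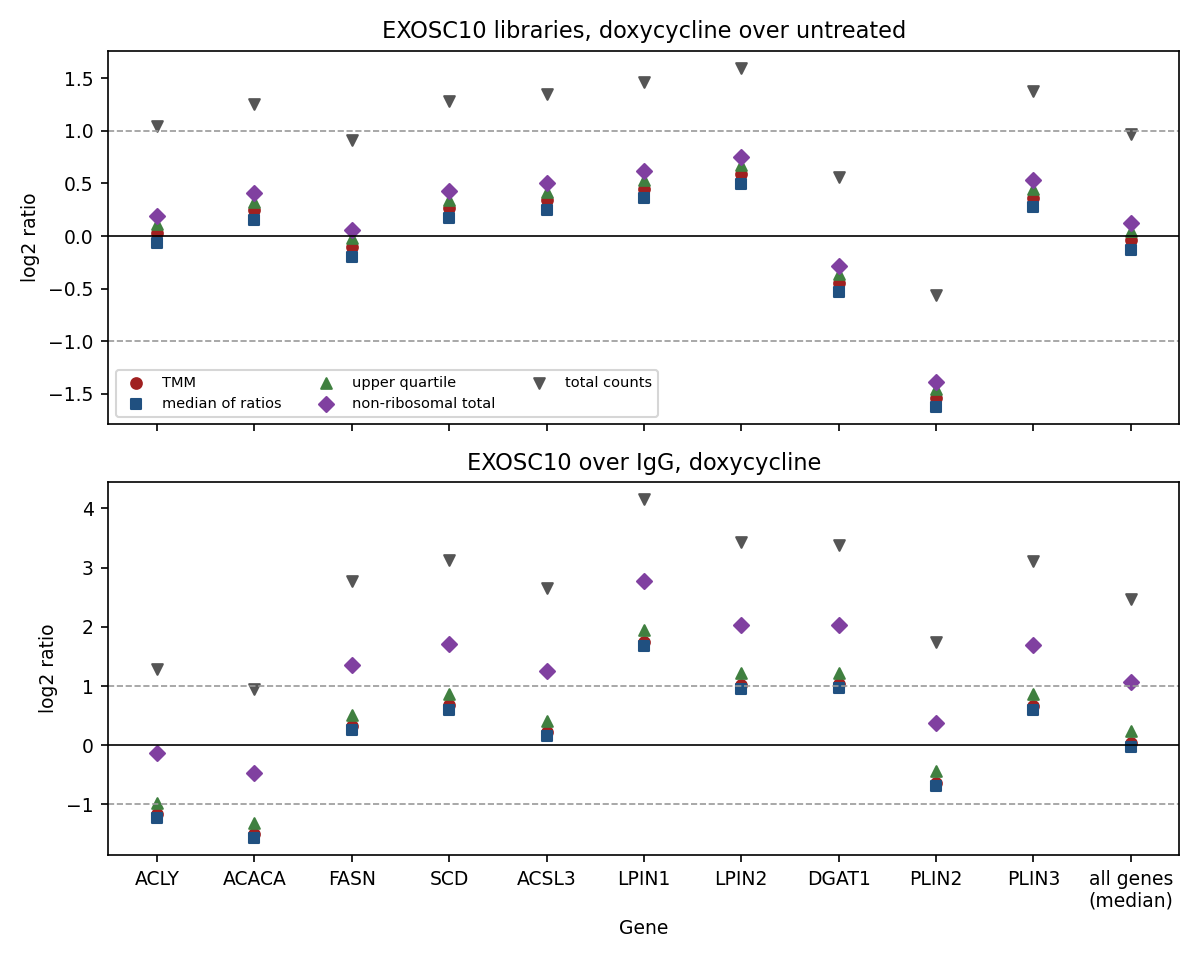
Log2 ratio of each gene under 5 scalings, with the median of all genes compared at the right, for doxycycline over untreated in the EXOSC10 libraries (top) and for EXOSC10 over IgG with doxycycline (bottom); dashed lines mark 2-fold. Each scaling moves the genes together with the median of all genes, and PLIN2 is below 0 under all 5 in the top panel.

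The reads of 1 gene over those of another within a library need no scaling, and 6 such pairs were chosen after the values had been seen. FASN had 0.875 times the reads of ACACA in the untreated IgG library and 0.738 times in the doxycycline IgG library. With EXOSC10 it had 3.34 times untreated and 2.62 times with doxycycline. The ratio of the synthase to the carboxylase was thus 1.93 higher on the log2 scale with EXOSC10 than with IgG untreated (1.53 to 2.34) and 1.83 higher with doxycycline (1.53 to 2.13). FASN over ACLY gave 1.41 (1.05 to 1.78) and 1.49 (1.21 to 1.78), so FASN differed from both enzymes upstream of it. LPIN1 over ACACA was 0.0829 in each IgG library, and 0.698 and 0.807 with EXOSC10. PLIN2 over PLIN3 was 0.108 and 0.356 with IgG and 0.550 and 0.142 with EXOSC10. Doxycycline went with a lower ratio of PLIN2 to PLIN3 with EXOSC10 (-1.95, -2.56 to -1.34) and a higher one with IgG (1.72, 0.07 to 3.37). SCD over FASN was 0.37 higher with doxycycline with EXOSC10 (0.16 to 0.58) and -0.15 with IgG (-0.52 to 0.23). LPIN1 over LPIN2 was 1.38 higher with EXOSC10 than with IgG untreated (0.38 to 2.38) and 0.74 with doxycycline (-0.08 to 1.56).

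An additive model over all 4 libraries was fitted by limma to 9579 genes with antibody and doxycycline as factors. It uses the other factor in place of replicates and leaves 1 residual degree of freedom. Because limma also borrows variance from other genes, its p-values for the 10 genes rest on 8.49 degrees of freedom in total. For the antibody, ACACA (log2 -1.53, SE 0.25, limma adjusted p = 0.00391) and ACLY (-1.11, SE 0.25, adjusted p = 0.0157) were lower with EXOSC10 and LPIN1 was higher (1.61, SE 0.38, adjusted p = 0.0194), each in the same direction in both treatments. Over all genes the same test called 1.39% higher and 15.9% lower, and without its mean-variance trend it called 0 of the 9579. The other 7 were on the higher side and did not pass, with PLIN3 nearest (0.63, limma adjusted p = 0.206). These 3 calls were lost without the mean-variance trend, where limma gave adjusted p of 0.130 for ACACA, 0.183 for ACLY and 0.126 for LPIN1, and scaling by the non-ribosomal total put LPIN1 and 6 other genes of the 10 past the threshold on the higher side, as it did 3505 of all 9579 genes (589 were lower), and neither ACLY nor ACACA on the lower. For doxycycline, limma called none of the 10 (smallest adjusted p = 0.849, for DGAT1) and 0 of the 9579 genes, a share of 0.00% higher and 0.00% lower; at an unadjusted p under 0.05 it had 443 genes and none of the 10. PLIN2, with opposite ratios for the antibodies, was at 0.18 in this model (SE 0.83, limma adjusted p = 0.985).

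The table held 26 entries for the 10 symbols, and entries were summed. FASN, SCD, DGAT1 and PLIN2 had 1 entry each. Among the other 6, the summed reads of ACLY, ACACA and LPIN2 were whole in all 4 libraries, those of PLIN3 in 3, those of ACSL3 in 2 and those of LPIN1 in 0. The division of reads among entries varied between libraries. Of the 3 ACSL3 entries, the first held 99.98% of the gene's reads in the doxycycline IgG library and at most 0.74% in each of the others. The third LPIN2 entry held 75.7% in the untreated EXOSC10 library and 12.7% in each of the other 3. One entry of PLIN3 went from 0.35% untreated to 44.0% with doxycycline in the EXOSC10 libraries. The entries are not named beyond the symbol, so what they stand for is not given in the sources used here. For doxycycline over untreated with EXOSC10, the largest entry in place of the sum put ACLY and LPIN2 past 2-fold on the higher side (2.55 and 2.28), ACACA at 0.86 and LPIN1 at 0.02, and turned ACSL3 (-0.25) and PLIN3 (-0.49) to the lower side. The ratios of these 6 genes therefore depend on summing.

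Around these genes, 7 lists of the wider pathway held 144 genes, of which 107 were in the table. In the EXOSC10 libraries 71 of them had 100 reads, and with doxycycline 3 were 2-fold higher (6.06% of all genes were) and 2 lower (3.98% were), with a median of 0.18 beside -0.04 for all genes. Fatty acid synthesis, with the elongases and desaturases, had 0 of 18 higher or lower and a median of -0.08. Triglyceride synthesis had a median of 0.41 and 1 of 12 higher, AGPAT4, an acyltransferase of the lipin pathway (1.17, on 21 and 128 reads). Lipid droplet proteins had a median of 0.13 and 1 of 6 lower, PLIN2, with the perilipin PLIN4 next at -0.94. Acyl-CoA activation and uptake had a median of 0.30 and 1 of 7 lower, the fatty acid transporter SLC27A4 (-1.01, on 53 and 68 reads). Lipolysis genes had a median of 0.04 with 0 of 4 past 2-fold, and PNPLA2, the first lipase of droplet triglyceride, was at -0.71. Fatty acid oxidation had a median of 0.15 and 1 of 10 higher, ECI2 (1.03). Lipogenic regulators had a median of 0.30 and 1 of 14 higher, the AMPK subunit PRKAG1 (1.07); SREBF1 and SREBF2, which drive transcription of lipogenic genes, were at 0.28 and 0.43. PLIN4, PNPLA2, SREBF1 and SREBF2 were named after their values had been seen.

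For EXOSC10 over IgG the same lists had 7 of 40 genes higher and 5 lower untreated, where 5.37% and 36.1% of all genes compared were. With doxycycline they had 15 of 67 higher and 7 lower, where 14.0% and 26.6% of all genes were. These all-gene shares depend on the minimum of 100 reads. With a minimum of 20 reads, 1480 of 8526 genes were higher and 1914 lower untreated. With doxycycline 2864 of 10944 were higher and 2157 lower. The lists were not compared at other minimums. ACLY and ACACA, LPIN1, ACSL4 and CTDNEP1 were past 2-fold in the same direction in both treatments. ACSL4, the synthetase with a preference for arachidonate, was lower (-2.50 untreated, -1.84 with doxycycline), unlike ACSL3. CTDNEP1, the phosphatase that activates lipins, was lower as well (-2.96 and -2.63), where LPIN1 was higher. With total counts ACSL4 turned positive with doxycycline, and CTDNEP1 stayed negative.

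**Figure D5:**
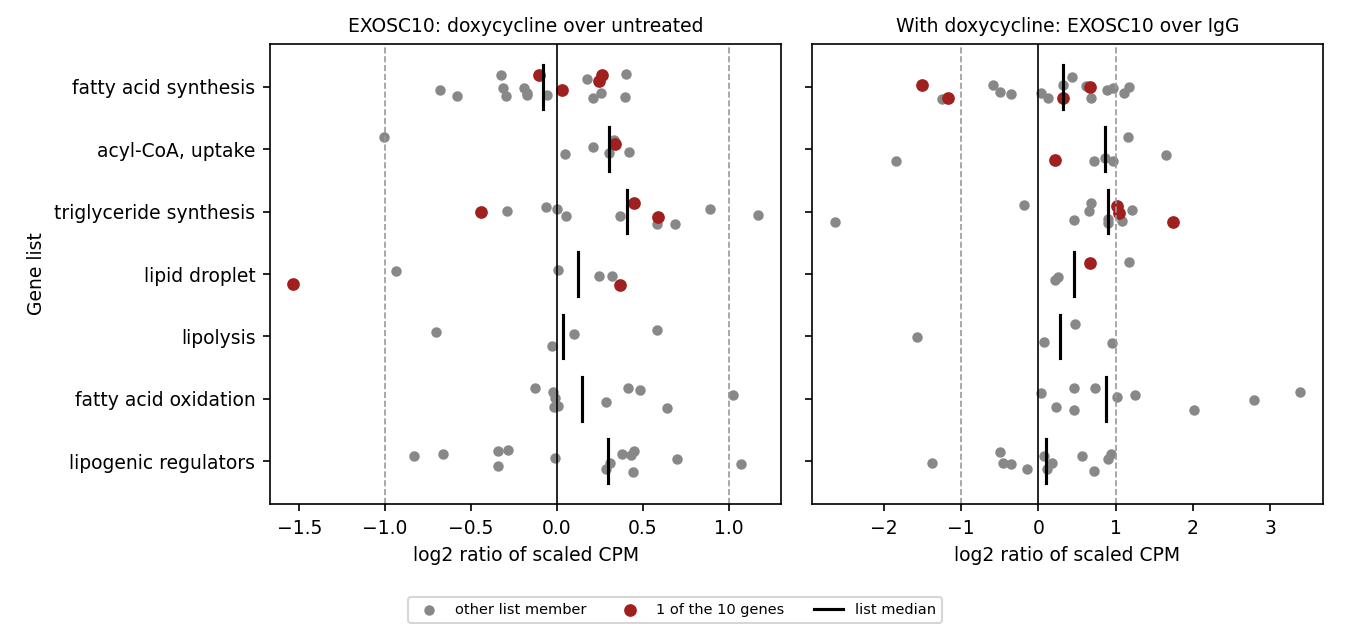
Log2 ratio of each gene with 100 reads in 7 lists of the lipid pathway, for doxycycline over untreated in the EXOSC10 libraries (left) and EXOSC10 over IgG with doxycycline (right); red points are the 10 genes, black bars the list medians and dashed lines 2-fold. On the left PLIN2 at -1.53 is the lowest point, and on the right ACACA and ACLY lie below -1 while the list median of fatty acid synthesis is 0.32.

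Among the 1290 genes with 100 reads in every library, those nearest to LPIN1 over the 4 libraries, by the Euclidean distance of centred log2 levels, were AGRN (0.77), ASPH (0.82) and COTL1 (0.86). Among those nearest to PLIN2 were RN7SK (1.33) and PEG10 (1.51), both farther away than the 3 neighbours of LPIN1. PLIN2 and LPIN1 themselves did not have 100 reads in every library.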

How the data were processed

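The authors deposited 1 table of CPM values, read as such because each of the 4 columns summed to 1000000 apart from a constant of 0.0001 on each of the 24015 entries. Per the submitters' processing notes STAR, Partek and hg38 were used. The sources used here do not give the annotation or the counting rule. Each entry reached 10.0 reads in a library. The constant was taken off, entries of a symbol were summed, and reads were estimated as CPM over the value of 1 read (0.132 to 0.269 CPM); 67.6% to 74.0% of genes per library were within 0.05 of whole reads, so no count model was used. TMM (30% of ratios and 5% of levels trimmed, entries from 0.5 reads) scaled the libraries. Tests were limma 3.58.1 (R 4.3.3, trend, genes with 10 reads in 2 libraries, Benjamini-Hochberg at 0.05) on log2(CPM + 0.2). Ratio intervals are Clopper-Pearson, and those of changes and of read ratios come from summed reciprocal reads. Reads are not independent molecules. Nothing says that libraries are separate cultures. The steps were tested on simulated data. Alternatives were 10 settings for ratios and 6 for limma. Named pathway genes were those past 2-fold in the EXOSC10 doxycycline comparison and up to 2 per list and direction past it in EXOSC10 over IgG in both treatments; others are marked. Coordinates are from the GRCh38.p14 gene table. Members and lists were chosen with earlier results of these data known. A gene that the rule for likeness names is not reported here.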

Additional observations from a re-analysis of the deposited data

Results flagged for a closer look

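PLIN2 is listed because its doxycycline ratio went opposite ways with the antibodies: -1.53 in the EXOSC10 libraries (95% interval -2.14 to -1.03) and 1.89 in the IgG libraries (0.46 to 4.03). Each is a single pair of libraries, so the difference was not tested against replicates. The IgG pair held 4 and 21 reads.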

How the results depend on the processing

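No paired analysis was possible because each group holds 1 library, so there are no replicate numbers to use as a block; the additive limma model does compare the antibodies within treatments. No library could be left out. Counts of the 10 genes past 2-fold moved as follows. With total counts, 7 were higher and 0 lower for doxycycline with EXOSC10, 4 and 0 for EXOSC10 over IgG untreated, 8 and 0 for it with doxycycline, and 4 were higher for the change; ACLY and ACACA reversed to 1.29 and 0.95 for EXOSC10 over IgG with doxycycline. With the non-ribosomal total, EXOSC10 over IgG had 5 higher and 0 lower untreated and 7 and 0 with doxycycline. For EXOSC10 over IgG the upper quartile left 1 lower in each treatment, where 1186 of 3615 genes compared were lower untreated and 1457 of 6275 with doxycycline. Median-of-ratios factors or a pseudocount of 1 CPM left 1 higher with doxycycline, where 778 and 740 of 6275 were. A minimum of 20 reads gave 1 higher and 1 lower with IgG, 2 higher for EXOSC10 over IgG untreated and 1 lower for the change. Over all genes at that minimum, 619 of 7313 were higher and 549 lower with IgG. For EXOSC10 over IgG untreated 1480 of 8526 were higher, and for the change 1040 of 7255 were lower. A minimum of 500 reads left 0 lower for doxycycline with EXOSC10, 0 higher and 0 lower for EXOSC10 over IgG untreated, and 0 higher for it with doxycycline. Over all genes at that minimum, 40 of 1449 were lower for doxycycline with EXOSC10. For EXOSC10 over IgG, 3 of 711 were higher and 476 lower untreated, and 40 of 1468 were higher with doxycycline. The largest entry of each symbol gave 2 higher for doxycycline with EXOSC10, where 743 of 5481 genes compared were higher. For EXOSC10 over IgG it gave 0 higher untreated, where 262 of 2865 were, and 1 lower with doxycycline, where 1422 of 5248 were. For the change it gave 2 higher, where 175 of 2255 were. Overlapping genes summed gave 1 higher for the change, DGAT1 with HSF1, and no share over all genes was computed there. In limma, the antibody called 0 higher and 0 lower of the 10 with total counts (ACACA and ACLY then on the higher side, adjusted p = 0.968 and 0.795) and without the trend, 7 and 0 with the non-ribosomal total, and 0 higher with 50 reads in all 4 libraries, where LPIN1 was not tested. Over all genes, doxycycline with EXOSC10 had 399 higher and 262 lower with TMM, 3149 and 8 with total counts, 490 and 188 with the upper quartile, 587 and 156 with the non-ribosomal total, 339 and 374 with median-of-ratios factors, and 5 and 40 with a minimum of 500 reads. For EXOSC10 over IgG with total counts, 1131 of the 3615 genes compared untreated were higher and 523 lower. With doxycycline 5076 of 6275 were higher and 34 lower, and for the change 2274 of 2945 were higher and 11 lower. The non-ribosomal total gave 1383 higher and 305 lower untreated, and 3256 and 662 with doxycycline. The cause was not tested beyond the shifts given above. Depth limits PLIN2, DGAT1, LPIN1 and LPIN2 with IgG, at 4 to 28 reads.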
